A study of Mus musculus with 4 samples.

Results

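The genes described here are 8 cytotoxic effectors: the granzymes Gzma, Gzmb, Gzmc and Gzmk, the pore former Prf1, the granule protein Nkg7, the cytokine Ifng and the receptor Klrg1. They were taken by symbol from the 55414 genes of the count matrices, and each was found once: ENSMUSG00000023132.9 (Gzma), ENSMUSG00000015437.6 (Gzmb), ENSMUSG00000079186.4 (Gzmc), ENSMUSG00000042385.15 (Gzmk), ENSMUSG00000037202.7 (Prf1), ENSMUSG00000004612.10 (Nkg7), ENSMUSG00000055170.5 (Ifng) and ENSMUSG00000030114.9 (Klrg1). No measured value was used to choose them, but earlier results of these data were known when the set was drawn up.

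The libraries came from mouse liver, 1 for each of 4 groups. Every list of 4 values below gives the baseline libraries first, A/A then S/S, and then the TNF libraries, again A/A then S/S. A/A and S/S are genotypes whose symbols the labels do not spell out, and all mice were 2 months old. TNF mice received 500 ng of the inflammatory cytokine TNF into the peritoneum 3 h before the cells were taken, and baseline mice are labelled without a challenge. Each library pooled cells from 2 mice, which had been enriched for non-parenchymal cells and then sorted by flow cytometry for macrophages and live cells, so that lymphocyte numbers also reflect the sort. With 1 library per group there was no replicate and no test was possible. Brackets hold 95% intervals that cover the error of counting UMIs, not differences between mice or preparations.

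Natural killer (NK) cells and CD8 T cells kill target cells by releasing granules. Perforin opens the target membrane, and granzymes, which are serine proteases, then enter the target and set off its death. The liver is rich in NK cells, in the related type 1 innate lymphoid cells (ILC1) and in T cells that carry the NK receptor NK1.1 (gene Klrb1c). Activated cells of these kinds also make interferon gamma, the product of Ifng, which acts on macrophages.

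Cells were assigned to types by marker UMIs (UMIs are counted transcript molecules), and none of the 8 genes served as a marker. The NK and ILC1 gate held 66, 157, 157 and 101 cells, and the CD8 T gate 74, 299, 138 and 97. The NK1.1 T gate (Cd3 and Klrb1c UMIs) held 249, 171, 579 and 85 cells, the CD4 T gate 65, 189, 131 and 49, and the plasmacytoid dendritic cell (pDC) gate 170, 189, 176 and 119. Levels are CPM, the UMIs of a gene scaled to the UMI total of the gate. A list of 6 NK and ILC1 markers summed to between 4083 and 5795 CPM in the NK and ILC1 gate. It summed to 834.8 to 1250 CPM in CD8 T cells and 1917 to 2731 CPM in NK1.1 T cells. All 6 had UMIs in at least 10% of the cells of each of these 3 gates. The sum was not particular to the gate: it was 3334 to 4137 CPM in pDC and 2529 to 2958 CPM in neutrophils. In S/S TNF the pDC sum of 4137 CPM was above the 4083 CPM of the NK and ILC1 gate. However, only 2 or 3 of the 6 had UMIs in 10% of pDC, and 1 in 10% of neutrophils. A list of 6 T cell markers summed to between 357 and 519 CPM in the NK and ILC1 gate, against 1656 to 2887 CPM in the CD8, NK1.1 and CD4 T gates. The T cell gene Trdc had UMIs in 26.7 to 39.5% of the cells of the NK and ILC1 gate. The pDC list, which includes genes such as Irf8, summed to 1009 to 1523 CPM there. A list of 4 genes of other cells (Alb, C1qa, Hbb-bs and S100a8) summed to 43.6, 139, 1252 and 1199 CPM there, and to more after TNF than at baseline in every T cell gate too. Most of it after TNF was the neutrophil gene S100a8, at 5.81, 10.1, 1215 and 1099 CPM. The part of these RNAs in the TNF ratios was not tested.

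Whole libraries differed in ways that touch the comparisons. They held 21088801, 30724027, 53556431 and 54999906 UMIs, and the ribosomal RNA gene Rn18s-rs5 took 16.7, 6.19, 14.4 and 13.9% of them. Pairs of libraries shared 2 to 11 barcodes of kept cells. Both baseline matrices name Cell Ranger 7.1.0 and both TNF matrices 6.1.2, so software version and TNF cannot be told apart. In the NK and ILC1 gate, genes whose introns total over 100 kb had median TNF-over-baseline log2 ratios of -1.60 (A/A) and -1.42 (S/S), whereas genes with introns under 1 kb had 0.70 and 0.17. The part of intron counting in this was not tested. The members' introns total 263 bases in Nkg7, 1987 in Gzmb, 2322 in Gzmc, 3552 in Ifng, 4264 in Prf1, 6151 in Gzma, 10873 in Klrg1 and 52912 in Gzmk, so most TNF ratios of members in the NK and ILC1 gate are also set against genes of like intron length. After TNF, S/S against A/A gave medians of 0.01 under 1 kb and -0.16 over 100 kb. At baseline S/S against A/A gave 0.59 under 1 kb, 0.45 at 1 to 10 kb and -0.34 over 100 kb.

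Proximal promoters, the 250 bases before the start of transcription, are shown for 4 members because Gzma and Prf1 had the most alike profiles of any 2 members, while the neighbouring genes Gzmb and Gzmc did not. They come from RefSeq on GRCm38.p6, an earlier build than the mm39 of the counts, and 7 of the 8 members were found in that table, all but Klrg1. They lie at chr13:113100982-113101231 (minus strand) for Gzma, chr14:56262335-56262584 (minus) for Gzmb, chr14:56234658-56234907 (minus) for Gzmc and chr10:61297586-61297835 (plus) for Prf1. Each is written 5′ to 3′ along its gene, and capitals mark matches on either strand to TGTGGT (RUNX), GGG, any 5 bases and CC (NF-kB) or TGANTCA (AP-1).
Gzma: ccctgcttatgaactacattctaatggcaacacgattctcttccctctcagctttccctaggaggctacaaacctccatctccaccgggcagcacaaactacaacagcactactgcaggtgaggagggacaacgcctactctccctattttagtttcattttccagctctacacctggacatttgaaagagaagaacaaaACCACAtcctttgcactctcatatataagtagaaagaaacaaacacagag
Gzmb: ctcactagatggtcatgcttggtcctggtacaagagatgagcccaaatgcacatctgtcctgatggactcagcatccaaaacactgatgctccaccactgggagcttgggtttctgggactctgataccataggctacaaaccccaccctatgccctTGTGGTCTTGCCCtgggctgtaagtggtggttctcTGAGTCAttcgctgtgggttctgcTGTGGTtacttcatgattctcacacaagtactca
Gzmc: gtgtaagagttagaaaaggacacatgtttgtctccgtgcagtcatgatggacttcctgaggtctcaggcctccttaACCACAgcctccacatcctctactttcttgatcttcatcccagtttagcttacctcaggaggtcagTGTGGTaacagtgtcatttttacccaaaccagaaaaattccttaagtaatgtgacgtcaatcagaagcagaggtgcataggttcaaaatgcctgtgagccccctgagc
Prf1: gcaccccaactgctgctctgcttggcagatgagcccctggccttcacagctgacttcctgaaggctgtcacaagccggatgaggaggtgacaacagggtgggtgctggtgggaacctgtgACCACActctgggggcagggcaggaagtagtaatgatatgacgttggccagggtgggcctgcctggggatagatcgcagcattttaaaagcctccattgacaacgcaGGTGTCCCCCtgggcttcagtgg
All 4 hold a RUNX match. Over all 7 promoters, 5 matched RUNX, against 14.1% of 32851 promoters of the same length. An NF-kB match was found in 4 of 7 (45.8% of all promoters), and in Gzmb it overlaps a RUNX match. The T-box letters TCACACC were found in Gzmk and Nkg7 (3.33% of all), the STAT letters TTCNNNGAA in Nkg7 and Ifng (7.02%), and AP-1 in Gzmb alone (6.75%). A match is a run of letters, not a measured binding site.

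The 8 genes were not spread alike over the cell types. The NK and ILC1 gate held 63.0, 34.6, 56.6 and 42.2% of all Gzma UMIs of each library and 55.8, 38.4, 55.1 and 54.5% of the Prf1 UMIs. Gzmk lay mostly in the CD8 T gate, with 61.8, 53.9, 58.2 and 72.0% of its UMIs. Ifng was divided by genotype. The NK1.1 T gate held 63.1% of its UMIs in A/A baseline and 50.1% in A/A TNF, but 13.7% in S/S baseline and 15.0% in S/S TNF. Nkg7 showed the same division, at 44.5, 16.4, 46.0 and 17.8% in NK1.1 T cells. The number of NK1.1 T cells differed too, at 8.80, 3.92, 8.97 and 1.54% of kept cells. Kept cells outside every gate held 16.2% of the 29925 Gzma UMIs of S/S baseline and 4.66 to 7.15% in the other libraries.

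**Figure D1:**
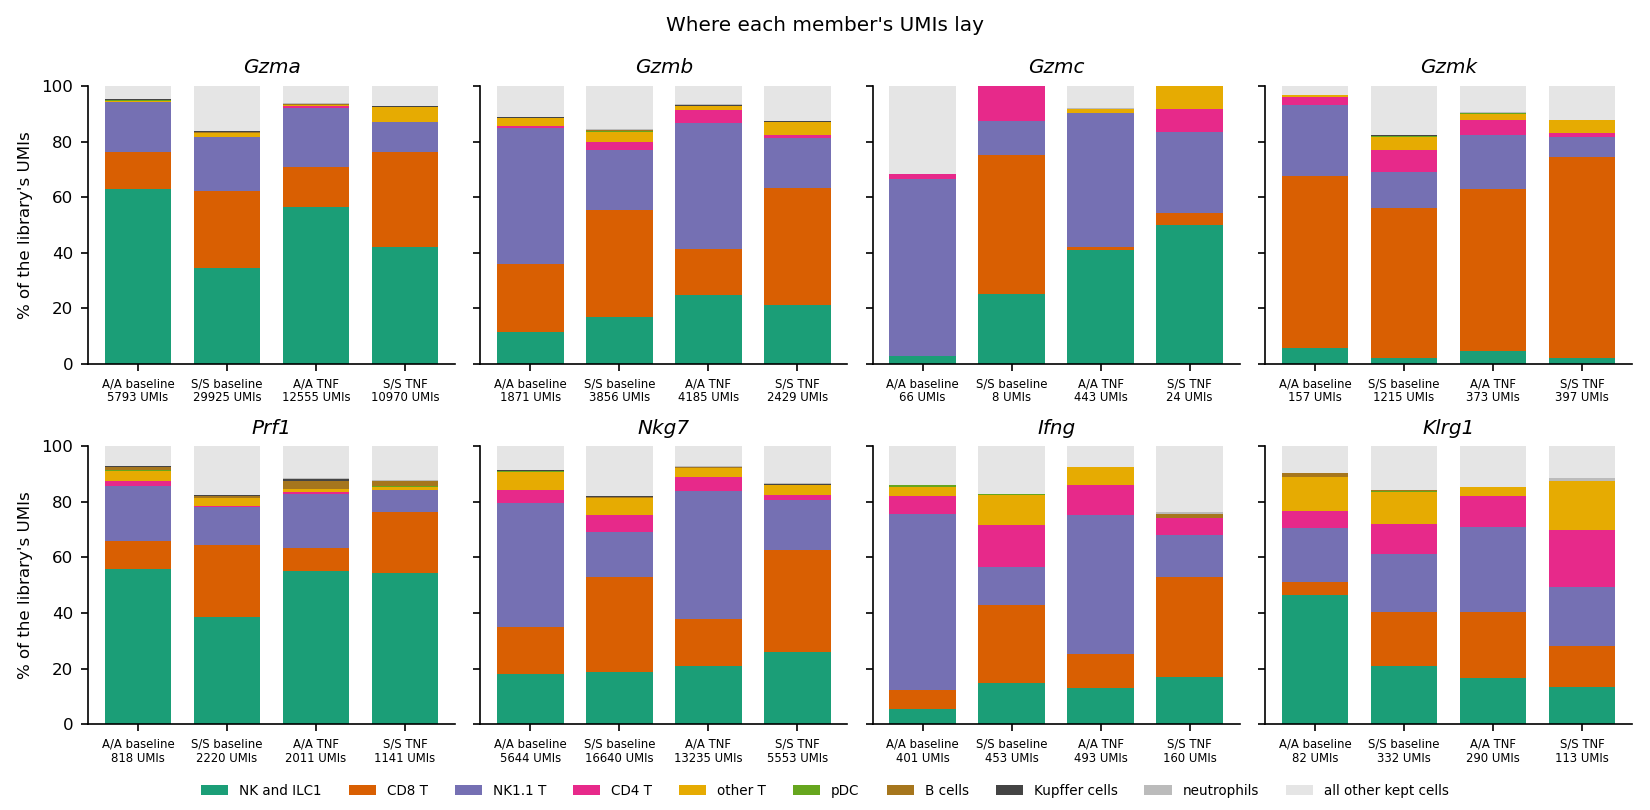
Share of each member's UMIs by gated cell type (stacked bars, % of the library's UMIs of that gene in kept cells), with the library's UMI total under each bar. The Ifng and Nkg7 bars hold a larger NK1.1 T part in both A/A libraries than in both S/S libraries, and Gzmc in S/S baseline rests on 8 UMIs in all.

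B cells, which should lack these genes, give a background level. Gzma stood at 4.29, 22.2, 9.23 and 3.92 CPM there, with a UMI in 3.72, 12.6, 9.88 and 5.11% of the B cells at a median depth of 8536, 5846, 9502 and 8848 UMIs. Gzmb, Gzmk, Ifng and Klrg1 stayed at or under 3.00 CPM in B cells, Gzmc had no UMI and Prf1 reached 15.3 CPM in A/A TNF. The A/A TNF B cells held 58 of the library's 2011 Prf1 UMIs, but 6 of 13235 for Nkg7 and 35 of 12555 for Gzma, so Prf1 in B cells is not read as a free RNA level. Plasmacytoid dendritic cells were close to this background. Their Gzma came to 7, 34, 9 and 2 UMIs (2.55, 15.5, 2.84 and 1.03 CPM), their Gzmc to 0 UMIs in every library, and no other member had more than 12 UMIs. The S/S baseline library had the highest Gzma in both cell types.

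**Figure D2:**
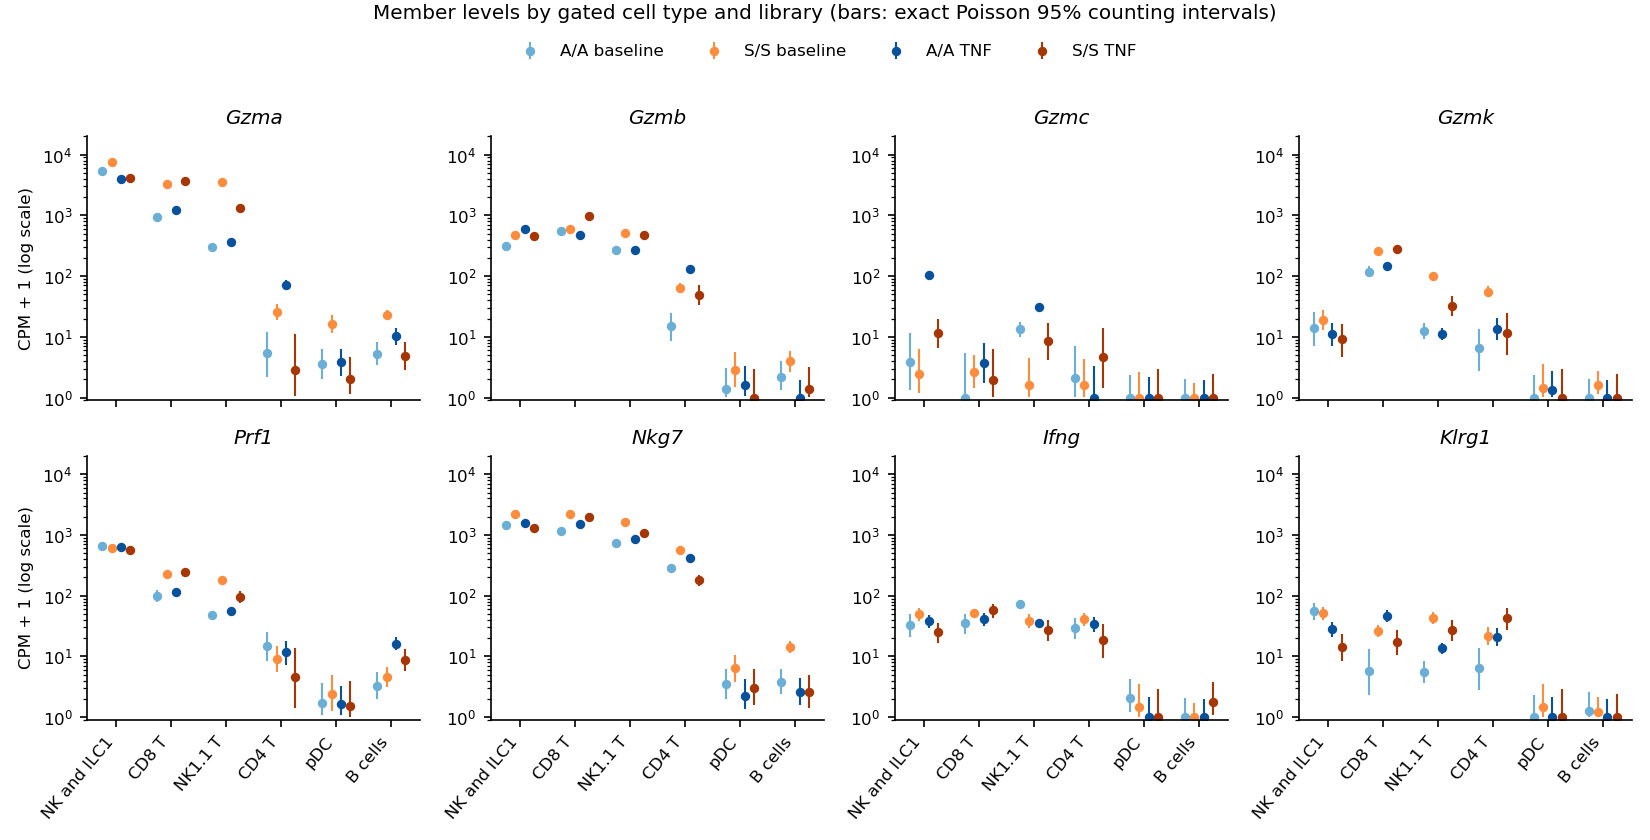
Level of each member (CPM + 1, log axis) in 6 gated cell types and 4 libraries, with exact Poisson 95% counting intervals as bars. Gzma and Prf1 are highest in the NK and ILC1 gate, Gzmk in the CD8 T gate, and all 8 genes are low in pDC and B cells.

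Gzma encodes a granzyme with trypsin-like cleavage. In the NK and ILC1 gate it stood at 5300, 7493, 4014 and 4137 CPM. The baseline libraries were both above the TNF libraries. TNF over baseline was 0.757-fold in A/A [0.728 to 0.789] and 0.552-fold in S/S [0.533 to 0.572]. Genes of like intron length (1 to 10 kb) had medians of 0.55 and 0.10 on the log2 scale, and Gzma lay 0.95 below the median in both, at -0.40 and -0.86. S/S was 1.41-fold above A/A at baseline [1.36 to 1.47], or 0.50 on the log2 scale. Genes of like intron length had a median of 0.45 in that comparison. The Gzma ratio turned to -0.28 on the log2 scale when UMIs were scaled to ribosomal protein genes. After TNF S/S over A/A was 1.03-fold [0.993 to 1.07]. Ribosomal protein genes took 10.2, 17.5, 17.7 and 20.3% of the UMIs of the gate, and this scaling moved the median of all genes from 0.04 to -0.73 for TNF in A/A and from 0.06 to -0.70 between genotypes at baseline. Most cells of the gate carried the gene: 83.3, 77.7, 79.6 and 75.3% had a UMI, and 78.8, 73.1, 72.9 and 65.4% after each cell was thinned to 1000 UMIs. Cells with at least 100 Gzma UMIs made up 12.1, 26.8, 8.92 and 10.9%, highest in S/S baseline. On the NK side of the gate (NK markers such as Eomes and no ILC1 marker) Gzma reached 6823, 11406, 6169 and 6681 CPM, so that TNF over baseline in A/A was nearer 1 there, at 0.904-fold. On the ILC1 side, with 7, 27, 21 and 21 cells, it had 0, 76, 177 and 17 UMIs, and 75% of the 76 came from 1 barcode.

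Gzmb, the granzyme that cleaves after aspartate and starts caspase-dependent death, stood at 315, 472, 585 and 464 CPM in the NK and ILC1 gate. In A/A it was 1.86-fold higher after TNF [1.60 to 2.16]. In S/S the ratio was 0.983-fold [0.874 to 1.104], and it lay above 1 under 3 of 4 other scalings. The A/A difference was 0.89 on the log2 scale, which is 0.34 above the median of genes with like introns. With the ribosomal scaling it came to 0.09. At baseline S/S was 1.498-fold above A/A [1.28 to 1.76], and with the ribosomal scaling this turned to -0.19 on the log2 scale. Without that scaling the log2 ratio was 0.58, beside a median of 0.45 for genes with like introns.

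Gzmc sits beside Gzmb in a cluster of similar granzyme genes, so reads could be shared between copies and its counts are uncertain. The NK and ILC1 gate held 2, 2, 182 and 12 Gzmc UMIs, or 2.90, 1.45, 103 and 10.7 CPM. A/A TNF stood apart from the other 3 libraries. It was 35.4-fold above A/A baseline [9.66 to 295] and 9.59-fold above S/S TNF [5.36 to 18.9]. These UMIs were in few cells: 17.8% of the A/A TNF cells had one, a single barcode held 30.2% of them and 5 barcodes 69.2%. Without the barcode with most Gzmc UMIs in each library the A/A TNF over baseline log2 ratio was 4.89. This also dropped 1 of the 2 baseline cells with a Gzmc UMI, so it does not show the effect of the A/A TNF barcode alone. With all barcodes the ratio lay 4.18 above the median of genes with like introns. Leaving in barcodes that also carried B cell or macrophage UMIs raised the baseline to 14 UMIs and lowered the ratio from 4.73 to 2.26. By side, the ILC1 side of A/A TNF held 96 UMIs in 21 cells (285 CPM, 52.4% of cells) and the NK side 12 (13.2 CPM). The rest of the 182 lay in the 41 cells with markers of neither or both sides. In S/S TNF the sides held 5 and 4 UMIs (14.5 and 8.19 CPM). Gzmb on the ILC1 side was 87.1, 32.5, 555 and 95.7 CPM, also highest in A/A TNF. Over the gate, 24 of the 28 Gzmc-positive cells of A/A TNF also had Gzmb, whereas 18 of 28 had Gzma.

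Prf1, which encodes perforin, stood at 662, 617, 626 and 556 CPM in the NK and ILC1 gate, a range narrower than for any granzyme there. TNF over baseline was 0.945-fold in A/A [0.847 to 1.06] and 0.901-fold in S/S [0.812 to 1.001], both of which lay above 1 when taken per cell (0.03 and 0.18 on the log2 scale). Against genes with like introns, Prf1 lay 0.63 and 0.25 below the median on the log2 scale. S/S over A/A was 0.931-fold at baseline [0.830 to 1.05] and 0.888-fold after TNF [0.804 to 0.981]. Nkg7, a granule membrane protein needed for granule release, was 1481, 2247, 1567 and 1292 CPM. Its TNF ratio was 1.06-fold in A/A [0.984 to 1.14], or -0.72 on the log2 scale with the ribosomal scaling, and 0.575-fold in S/S [0.540 to 0.612]. Both lay below the median of genes with introns under 1 kb, by 0.62 and 0.97 on the log2 scale. S/S baseline was the high library, 1.52-fold above A/A baseline [1.41 to 1.63], but with the ribosomal scaling that log2 ratio was -0.17. Without that scaling the log2 ratio was 0.60, and genes with introns under 1 kb had a median of 0.59.

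Ifng was low in this gate, with 22, 67, 65 and 27 UMIs (31.9, 48.4, 36.7 and 24.1 CPM). Its TNF ratio was 1.15-fold in A/A [0.699 to 1.96], or -0.58 on the log2 scale with the ribosomal scaling, and 0.498-fold in S/S [0.306 to 0.790]. The S/S ratio was 1.07 below the median of genes with like introns on the log2 scale (-0.98 against 0.10). At 3 h after TNF, 24.2% of A/A and 11.9% of S/S cells had an Ifng UMI, and 3.23 and 2.97% after thinning, a level near that of single UMIs. Klrg1, an inhibitory receptor of mature NK and effector T cells, had 38, 70, 48 and 15 UMIs, or 55.2, 50.6, 27.1 and 13.4 CPM. Both TNF libraries lay under both baseline libraries. TNF over baseline was 0.491-fold in A/A [0.314 to 0.773] and 0.265-fold in S/S [0.141 to 0.467], which is 0.84 and 1.58 below the median of genes with introns of 10 to 100 kb on the log2 scale. Gzmk had 9, 25, 18 and 9 UMIs in this gate, too few to order the libraries apart from S/S, where the TNF ratio was 0.445-fold [0.183 to 0.986]. That ratio turned to 1.49 on the log2 scale in thinned cells, on 2 and 1 UMIs, and to 0.35 on the NK side alone.

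Counted over the 8 genes in the NK and ILC1 gate, a member was called when its log2 ratio passed 1 either way with at least 20 UMIs in the pair. TNF against baseline in A/A called 1 of 8 (Gzmc, higher), while 32.5% of all genes were called. In S/S it called 2 of 7 (Gzmk and Klrg1, lower), against 25.2% of genes. S/S against A/A called 0 of 7 at baseline, against 14.2%, and 1 of 8 after TNF (Gzmc, lower), against 7.07%. The members' median log2 ratios were -0.000077, -0.86, 0.50 and -0.32 in these comparisons, beside 0.04, -0.20, 0.06 and -0.07 for all genes. Between genotypes at baseline, genes with introns of 1 to 10 kb had a median of 0.45. The counts of members are near the background or under it, so they are no result about the set. Of all genes called, 44.5, 23.8, 72.0 and 38.5% were higher in these comparisons; the ribosomal scaling gave 12.7, 14.3, 8.46 and 21.3%. Counts per cell gave 52.2, 46.8, 42.0 and 35.8%. The TNF comparisons of both genotypes have no library in common, but each shares a library with both genotype comparisons.

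**Figure D3:**
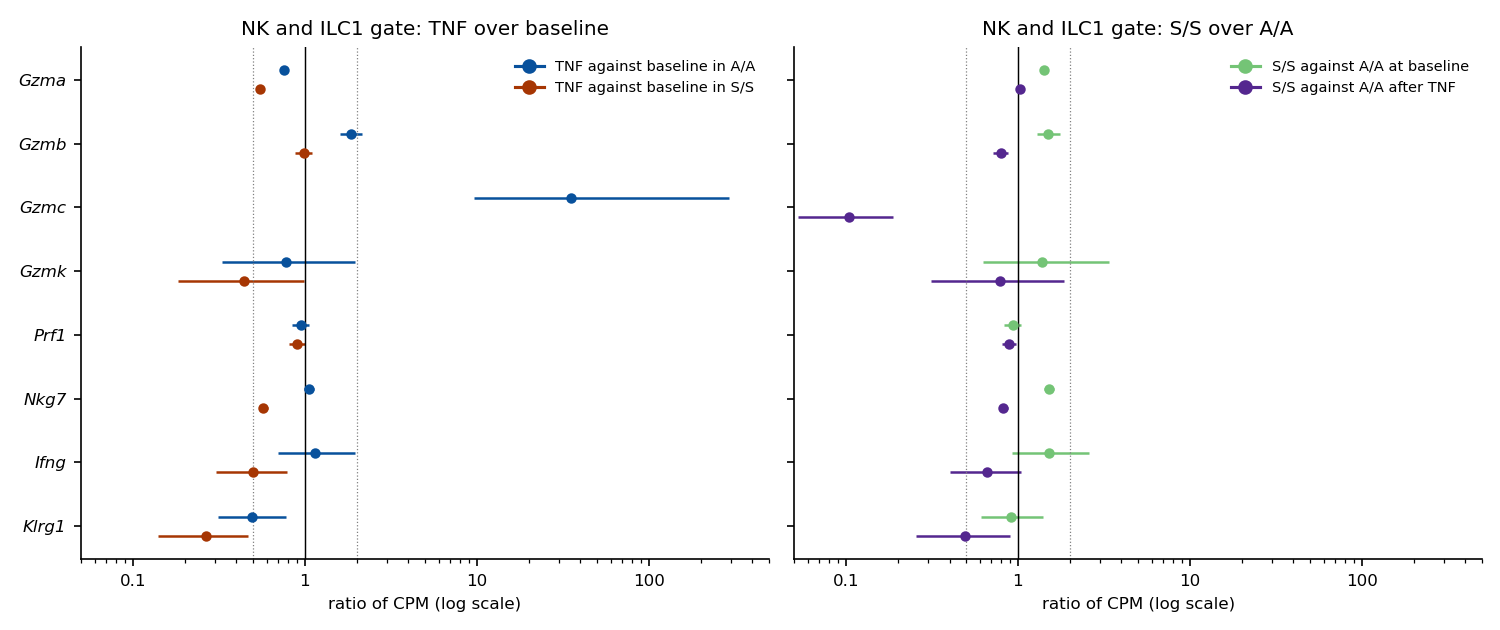
Ratio of CPM in the NK and ILC1 gate (log axis) with 95% counting intervals, TNF over baseline on the left and S/S over A/A on the right. Dotted lines mark 2-fold and pairs under 20 UMIs are left out. Gzmc lies far to the right for A/A and far to the left for S/S against A/A after TNF, and Prf1 lies near 1 throughout.

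In CD8 T cells the libraries divided by genotype. Gzma was 940, 3276, 1206 and 3628 CPM, with both S/S libraries above both A/A libraries. S/S was 3.49-fold above A/A at baseline [3.24 to 3.76] and 3.01-fold after TNF [2.84 to 3.18]. Gzma in B cells, at 22.2 CPM or less, was far below these levels. The share of CD8 T cells with a Gzma UMI was 35.1, 52.2, 31.2 and 49.5% (20.3, 38.5, 23.2 and 36.1% after thinning), and cells with at least 50 UMIs made up 8.11, 19.4, 11.6 and 22.7%. In S/S TNF 1 barcode held 17.8% of the UMIs. Without the barcode with most Gzma UMIs in each library the log2 ratio after TNF was 1.45 in place of 1.59. Over 9 other scalings, depths, gates and filters the log2 ratio lay between 1.40 and 1.85 at baseline and between 1.16 and 1.72 after TNF.

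Prf1 and Gzmk followed the same order in CD8 T cells. Prf1 was 99.7, 231, 113 and 244 CPM, 2.32-fold higher in S/S at baseline [1.84 to 2.96] and 2.16-fold after TNF [1.77 to 2.65]. Gzmk, a granzyme of memory-type CD8 T cells, was 118, 261, 145 and 278 CPM, 2.21-fold higher in S/S at baseline [1.78 to 2.77] and 1.92-fold after TNF [1.60 to 2.30]. Both genes had higher values in either S/S library than in either A/A library. Nkg7 was 1170, 2261, 1498 and 1986 CPM, and the genotype ratio was 1.93-fold at baseline [1.80 to 2.07] and 1.33-fold after TNF [1.25 to 1.41]. Gzmb did not follow this order at baseline. It stood at 553, 590, 468 and 992 CPM, with a genotype ratio of 1.07-fold at baseline [0.960 to 1.19], which lay below 1 under all 4 other scalings, and 2.12-fold after TNF [1.92 to 2.34], and S/S TNF was the high library.

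Ifng in CD8 T cells was 34.0, 50.9, 40.0 and 56.3 CPM, but 58.6% of the 58 UMIs of S/S TNF came from 1 barcode. Without the barcode with most Ifng UMIs in each library the log2 genotype ratio after TNF was -0.63 in place of 0.48. Klrg1 had 4, 64, 69 and 17 UMIs (4.86, 25.5, 46.0 and 16.5 CPM). S/S was 5.24-fold above A/A at baseline [1.95 to 19.8] and 2.79-fold below it after TNF [1.62 to 5.06], so its genotype order was opposite in the 2 states, a difference that was not tested. In A/A alone Klrg1 was 9.46-fold higher after TNF [3.53 to 35.7], on 4 baseline UMIs. Gzmc had 0, 4, 4 and 1 UMIs in CD8 T cells, where 0 UMIs allow up to 3.65 CPM.

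Of the 7 members measured in CD8 T cells, 4 were called for S/S against A/A at baseline (Gzma, Gzmk, Prf1 and Klrg1, all higher), while 12.8% of genes were called either way and 9.74% higher. After TNF 4 of 7 were called (Gzma, Gzmb and Prf1 higher, Klrg1 lower), against 8.36% of genes. TNF against baseline called 1 of 7 in A/A (26.9% of genes) and 0 of 7 in S/S (23.7%). The members' median log2 genotype ratio was 1.14 at baseline and 0.94 after TNF, beside 0.12 and 0.01 for all genes. With the ribosomal scaling 2 of 7 were called higher at baseline, when 32.9% of all calls were higher in place of 76.3%; after TNF 4 were higher and 1 lower, and 70.7% of all calls were higher in place of 55.4%. Set against genes of like intron length, the log2 genotype ratio at baseline was 1.44 above the median in Gzma, 0.84 in Prf1 and 1.098 in Gzmk. The CD8 T gate differed in other ways between the genotypes: Trdc, a gene of gamma delta T cells, stood at 149.5, 31.4, 85.3 and 4.85 CPM, and cells with UMIs of a cycling marker (Mki67 or Top2a) made up 21.6, 25.4, 21.7 and 37.1%. Their part in the Gzma difference was not tested. In summed counts of this kind, more cells that make a gene and more RNA per cell cannot be told apart.

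**Figure D4:**
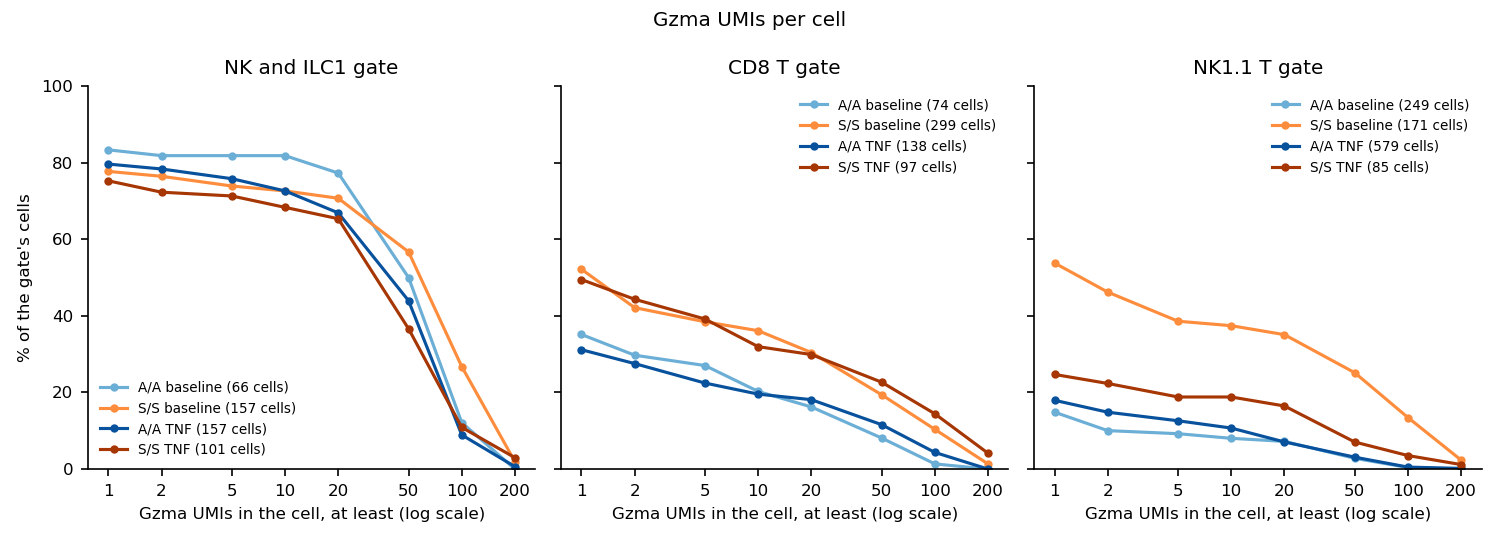
Share of cells (%) with at least the given number of Gzma UMIs (log axis) in 3 gates, 1 line per library. The S/S lines run above the A/A lines in the CD8 T and NK1.1 T gates, and the 4 lines of the NK and ILC1 gate lie close together up to 10 UMIs.

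In NK1.1 T cells Gzma was 302, 3540, 370 and 1316 CPM. Both S/S libraries were above both A/A libraries, and S/S baseline was the high one. Gzma was 11.7-fold higher in S/S at baseline [10.96 to 12.5] and 3.55-fold after TNF [3.32 to 3.81]. Cells with a Gzma UMI made up 14.9, 53.8, 18.0 and 24.7% (8.03, 39.2, 11.9 and 18.8% after thinning). In S/S TNF 39.1% of the UMIs came from 1 barcode. Without the barcode with most Gzma UMIs in each library the log2 genotype ratio after TNF was 1.29 in place of 1.83. The S/S log2 ratio of TNF to baseline was then -2.03 in place of -1.43.

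Gzmk, Prf1 and Klrg1 were also higher in S/S. Gzmk was 11.6, 98.0, 10.1 and 31.7 CPM, 8.45-fold higher in S/S at baseline [5.94 to 12.3] and 3.13-fold after TNF [1.96 to 4.88]. Prf1 was 47.6, 183, 54.7 and 95.2 CPM, 3.84-fold at baseline [3.16 to 4.67] and 1.74-fold after TNF [1.37 to 2.20]. Klrg1 had 16, 69, 89 and 24 UMIs, 9.05-fold at baseline [5.20 to 16.7] and 2.10-fold after TNF [1.28 to 3.32]. For each of these genes either S/S library exceeded either A/A library. Gzmb was 266, 508, 265 and 472 CPM, a genotype ratio of 1.91-fold at baseline [1.73 to 2.10] and 1.78-fold after TNF [1.60 to 1.98], and Nkg7 was 729, 1662, 857 and 1084 CPM, 2.28-fold at baseline [2.16 to 2.41] and 1.27-fold after TNF [1.18 to 1.35].

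Gzmc was lower in S/S in both states, and Ifng was lower at baseline. Ifng was 73.4, 37.7, 34.8 and 26.3 CPM in NK1.1 T cells, highest in A/A baseline, where 39.4% of cells had a UMI, against 19.3, 27.3 and 11.8% in the other libraries. In A/A it was 2.11-fold lower after TNF [1.76 to 2.52], 1.49 below genes with like introns on the log2 scale, and at baseline S/S was 1.94-fold below A/A [1.47 to 2.61]. After TNF the genotype ratio was 0.755-fold, with an interval that includes 1 [0.475 to 1.15]. A Gzma UMI was found in 12.2% of the Ifng-positive and 16.6% of the Ifng-negative NK1.1 T cells of A/A baseline, and in 19.0 and 17.6% of those of A/A TNF. Gzmc had 42, 1, 214 and 7 UMIs (12.2, 0.61, 30.1 and 7.66 CPM). Both A/A libraries were above both S/S libraries, but 69.0% of the 42 came from 1 barcode. Without the top Gzmc barcode of each library the A/A TNF over baseline log2 ratio was 2.46 in place of 1.24. Without the barcode with most Gzmc UMIs in each library, S/S was 4.79-fold below A/A at baseline and 8.22-fold after TNF, where the log2 ratios were -2.26 in place of -3.03 and -3.04 in place of -1.85.

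Of 8 members in NK1.1 T cells, 6 were called for S/S against A/A at baseline (Gzma, Gzmk, Prf1, Nkg7 and Klrg1 higher, Gzmc lower), against 11.6% of genes. After TNF 4 of 8 were called (Gzma, Gzmk and Klrg1 higher, Gzmc lower), against 10.8%. TNF against baseline called 3 of 8 in A/A (Gzmc and Klrg1 higher, Ifng lower), with 24.7% of genes called, and 2 of 7 in S/S (Gzma and Gzmk lower), with 26% called. Of all genes called between genotypes at baseline 74.3% were higher, against 40.1% with the ribosomal scaling, under which 4 members were higher and 2 lower. The composition of this gate differed between libraries. Cells with a Cd8a or Cd8b1 UMI made up 10.8, 38.6, 20.03 and 23.5% and cells with Cd4 35.7, 12.9, 24.5 and 16.5%. Zbtb16, the transcription factor that defines natural killer T cells, had a UMI in 77.9, 37.4, 24.7 and 14.1%. Its share was lower in A/A TNF than in S/S baseline. Cxcr6 had a UMI in 93.98, 64.9, 85.1 and 68.2%. For genes with introns over 100 kb, the median TNF-over-baseline log2 ratio of this gate was -1.50 for A/A. The S/S median was -1.61. Whether intron length or software version lowered the Zbtb16 shares after TNF was not tested. Among NK1.1 T cells without Cd8a or Cd8b1 UMIs, Gzma was 161, 2305, 198 and 1109 CPM, with genotype ratios of 14.2-fold at baseline and 5.58-fold after TNF. There Gzmk was 5.49-fold higher in S/S at baseline and 1.85-fold after TNF, which is under 2-fold, and the log2 genotype ratio of Ifng after TNF was -1.28 in place of -0.39. Of 31 ratios of members taken in these cells, 8 crossed 2-fold either way and 31 kept their sign. The part of cell composition in the genotype differences was not tested.

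**Figure D5:**
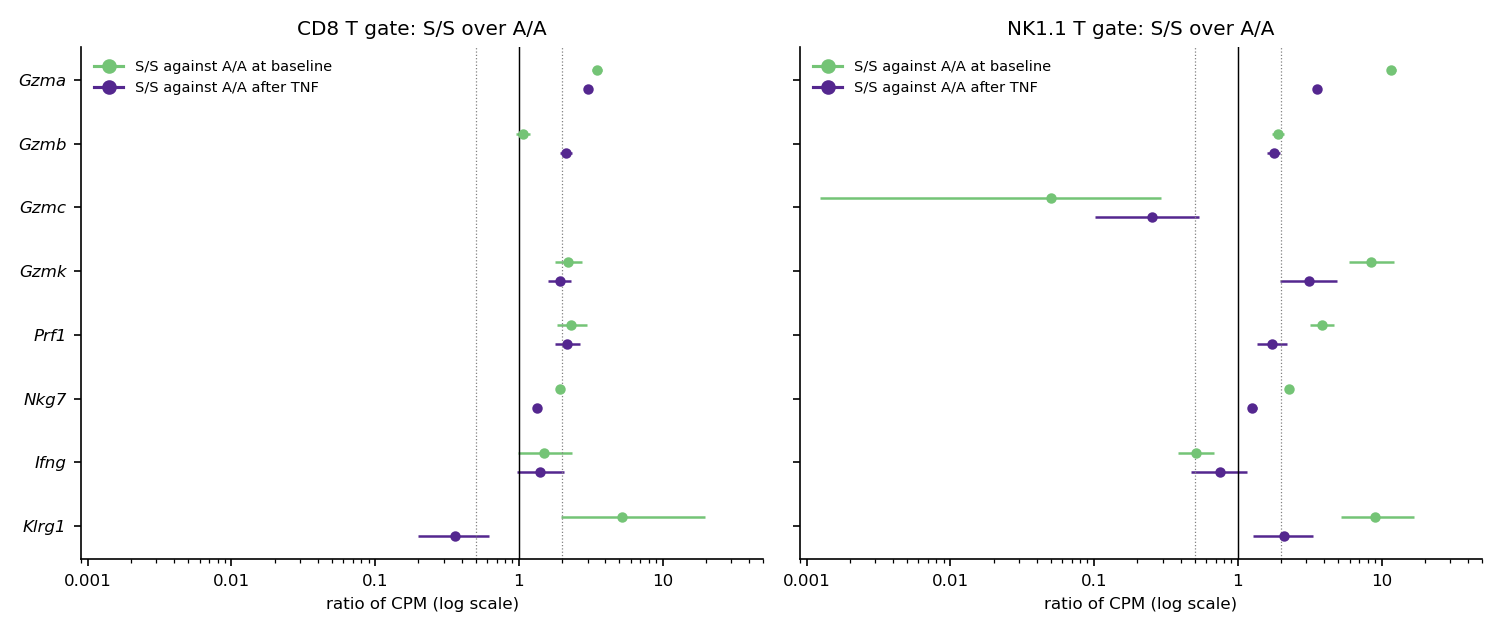
S/S over A/A ratio of CPM (log axis) in the CD8 T and NK1.1 T gates, at baseline and after TNF, with 95% counting intervals; dotted lines mark 2-fold and pairs under 20 UMIs are left out. Gzma, Gzmk and Prf1 lie right of 1 in both gates and both states, and Gzmc lies left of 1 in the NK1.1 T gate.

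In CD4 T cells much of the Gzma, Gzmb and Klrg1 of single libraries came from 1 barcode. Gzma had 4, 42, 113 and 1 UMIs (4.335, 24.5, 71.3 and 1.79 CPM), and in A/A TNF 59.3% of the 113 were in 1 barcode. Outside A/A TNF these Gzma levels were near or under those of B cells in the same library. Gzmb had 13, 108, 204 and 27 UMIs, and 82.4% of the 204 were in 1 barcode. Without the barcode with most Gzmb UMIs in each library the S/S over A/A log2 ratio of Gzmb after TNF turned from -1.39 to 0.24. Klrg1 also turned: 91.3% of its 23 UMIs in S/S TNF were in 1 barcode, and without the top barcodes its log2 ratio was -1.85 in place of 0.94 for TNF in S/S and -1.76 in place of 0.99 for S/S against A/A after TNF. Nkg7 was the broadest member, at 286, 576, 419 and 179 CPM with UMIs in 53.8, 70.4, 55.7 and 28.6% of the cells. S/S against A/A at baseline called 5 of 7 members (10.1% of genes). Gzma was among them, though near its B cell level in both libraries. Gzmk was too, 10.0-fold higher in S/S [4.14 to 31.6] on 5 and 93 UMIs. After TNF S/S against A/A called 3 of 6 (12.2%), and TNF against baseline called 4 of 7 in A/A (28.1%) and 4 of 6 in S/S (28.3%).

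Of 65 further genes of cytotoxic cells in 7 lists, 58 were measured in the NK and ILC1 gate for TNF in A/A, of which 9 were called higher and 12 lower, beside 14.4 and 18% of all genes. All 12 lower genes are among the 38 of the 58 with introns of 10 kb or more, and 6 of the 9 higher genes have less. For TNF in S/S 59 were measured, with 4 higher and 18 lower, beside 6.01 and 19.2% of all genes. Of the 18 lower genes 16 are among the 38 of the 59 with introns of 10 kb or more. The counts for A/A are near the background. The chemokine and cytokine list held 4 of the higher genes in A/A (median log2 ratio 1.82 over 6 genes), whereas in S/S 1 was higher and 1 lower (median -0.27). The chemokine Xcl1 was 4.38-fold higher after TNF in A/A [3.73 to 5.18] and 1.30-fold lower in S/S [1.16 to 1.46], at 235, 563, 1031 and 433 CPM. Ccl3, a chemokine for monocytes and T cells, was 5.49-fold higher in A/A [2.90 to 11.7]. Tnf itself was 6.32-fold higher in A/A [2.35 to 23.9] and 4.67-fold in S/S [2.19 to 11.1], on 4 and 9 baseline UMIs. Ccl4 was 5.30-fold lower after TNF in S/S [4.32 to 6.57].

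Over all genes of the gate lower calls outnumbered higher ones after TNF when counts were scaled to CPM. For A/A this order turned per cell (17.4% higher, 16.0% lower) and in thinned cells (20.2% higher, 19.0% lower). Of 16 NK receptors A/A had 5 called lower and S/S had 9, among them Klra8 at 0.171-fold and 0.272-fold; Klra genes are near-identical copies and uncertain. The transcription factor Tbx21, a driver of Ifng and of NK maturation, was 6.22-fold lower in A/A [5.01 to 7.77] and 5.63-fold in S/S [4.08 to 7.94], and Zeb2 4.72-fold and 3.66-fold lower; Tbx21 introns total 14773 bases and Zeb2 introns 113822. Among genes of the interferon gamma axis, the receptor subunit Ifngr2 was 8.37-fold higher in A/A [2.18 to 71.3] and 7.59-fold in S/S [3.39 to 20.01], while the IL-18 receptor gene Il18r1 was 3.14-fold and 4.17-fold lower. Among 10 granule partners 2 were called higher in A/A and 1 in S/S. Lamp1, a granule membrane protein, was 2.71-fold and 2.06-fold higher, and Srgn, which packs granzymes into granules, 2.06-fold and 1.44-fold. Of the other granzymes only Gzmm passed 20 UMIs, and it was not called.

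Between genotypes in this gate 6 of 55 listed genes were called higher in S/S at baseline and 1 lower, beside 10.2 and 3.98% of all genes, among them Ccl4 at 5.49-fold [4.24 to 7.23], Ccl3 at 4.63-fold [2.41 to 9.97] and Xcl1 at 2.39-fold [2.02 to 2.85], with Eomes, a factor of mature NK cells, 2.26-fold lower [1.82 to 2.82]. After TNF 0 of 59 were higher and 3 lower, beside 2.73 and 4.35% of all genes. These were Xcl1 at 2.38-fold [2.15 to 2.64], Cd160 at 2.09-fold [1.73 to 2.53] and Il12rb1 at 2.25-fold [1.05 to 5.35]. In NK1.1 T cells 18 of 59 listed genes were higher in S/S at baseline and 2 lower, with 10 of the 16 NK receptors among the higher ones, and 8 higher and 1 lower after TNF. Over all genes the shares were 8.63% higher and 2.99% lower at baseline and 3.56 and 7.24% after TNF. In CD8 T cells 8 of 53 were higher and 4 lower at baseline, beside 9.74 and 3.03% of all genes.

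The genes most like each member were sought over 20 profiles (5 gates in 4 libraries) by Pearson correlation of log2(CPM + 10) among 11593 genes; the profiles share libraries and depth, and no test applies. Gzma was most like Efhd2 (r = 0.957) and its closest member was Prf1 (0.969). Prf1 was most like Eomes (0.964), Gzmb most like the chemokine Ccl5 (0.976), and Nkg7 most like the cathepsin Ctsw (0.986). Ifng was most like Gimap9 (0.959), Gzmk like Ildr1 (0.932) and Klrg1 like Plscr1 (0.873). Gzmc stood alone, with Pctp at 0.818 and no member above 0.411.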

How the data were processed

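Single-cell RNA-seq counts of mouse liver were deposited as 1 matrix of raw UMI counts per library, made with Cell Ranger 6.1.2 (both TNF libraries) or 7.1.0 (both baseline libraries) per the file headers. The build was mm39 per the submitters' processing notes. Whether intron reads were counted is not given in the sources used here. Barcodes under 300 genes or over 20% mitochondrial UMIs were removed, which left 2830, 4366, 6452 and 5528 cells. T cells had at least 2 Cd3d, Cd3e or Cd3g UMIs and were divided by Klrb1c, Cd8a or Cd8b1, and Cd4. NK and ILC1 cells had fewer, and at least 2 UMIs of Ncr1, Klrb1c or Klre1. Barcodes with more than 2 UMIs of B cell or macrophage genes were left out of these gates; no doublet caller was run. Counts were summed per gate. Log2 ratios used a pseudocount of 1 CPM, and were taken for pairs with at least 20 UMIs and 20 cells per library. Intervals were exact Poisson (CPM) or conditional binomial (ratios). Against 0 UMIs a floor of 3 UMIs was used. Intron lengths came from a GRCm38 annotation (GENCODE), matched by gene identifier. From each of 7 related lists up to 3 genes with the largest ratio per comparison could be named, with other genes named for contrast. The members, lists and gates were chosen with earlier results of these data known. Alternatives changed the scaling, depth, gates, filters and pseudocount. Ratios without the top barcode left out, in both libraries of a pair, the barcode with most UMIs of the gene. The code was tested on simulated data. Figures were drawn with matplotlib 3.10.9, and the rest used pandas 2.3.3, scipy 1.17.1 and numpy 2.4.6 under Python 3.11.15.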

Additional observations from a re-analysis of the deposited data

Results flagged for a closer look

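In 8 cases a member's TNF-over-baseline ratio pointed in opposite directions in A/A and S/S, with both counting intervals away from 1. Each value is the log2 ratio in S/S minus that in A/A, each rests on 1 library per group, and none of these differences was tested. In CD8 T cells Gzmb differed by 0.99 (-0.24 in A/A, 0.75 in S/S) and Nkg7 by -0.54 (0.36 and -0.19). In NK1.1 T cells Gzma differed by -1.72 (0.29 and -1.43) and Nkg7 by -0.85 (0.23 and -0.62). In CD4 T cells Gzma differed by -6.95 (3.76 and -3.19), on 4, 42, 113 and 1 UMIs, and Nkg7 by -2.23 (0.55 and -1.68). Outside A/A TNF, Gzma in CD4 T cells was near or under its level in B cells. Among T cells without Klrb1c that fell in neither the CD8 nor the CD4 gate, Gzmb differed by 1.35 (-0.59 and 0.76). On the NK side of the NK and ILC1 gate Nkg7 differed by -0.88 (0.36 and -0.52). Some of these cases depended on the scaling, the depth or single barcodes, or were not opposite when set against genes of like intron length. With the ribosomal scaling the A/A log2 ratio of Nkg7 was -0.29 in CD8 T, -0.45 in NK1.1 T and -0.49 on the NK side. That of Gzma in NK1.1 T cells was -0.39, so both genotypes were lower after TNF in these cases. The remaining cases stayed opposite under that scaling. In thinned cells both Gzmb cases had the same sign in A/A and S/S. Gzmb in CD8 T cells was 0.28 and 0.57, and outside the CD8 and CD4 gates -1.88 and -0.05. Without the top barcodes the Gzmb case outside the CD8 and CD4 gates was -1.03 in A/A and -0.28 in S/S. Against genes of like intron length, Nkg7 lay below the median in A/A and S/S in CD8 T (-0.18 and -0.30), NK1.1 T (-0.24 and -0.75) and CD4 T cells (-0.05 and -1.80). Gzma in NK1.1 T cells did too (-0.14 and -1.44). Gzmb in CD8 T (-0.64 and 0.71) and Gzma in CD4 T cells (3.25 and -3.22) stayed opposite. Cases outside these gates were not set against such genes.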

How the results depend on the processing

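Of 1741 log2 ratios recomputed under an alternative, 1619 kept their sign and 150 crossed 2-fold either way. Among ratios past 2-fold, 4 turned, on few UMIs. Gzmk in NK and ILC1 cells for TNF in S/S turned to 1.49 in thinned cells and to 0.35 on the NK side alone. Ifng on the NK side for TNF in S/S turned to 0.68 in thinned cells. Gzmb in CD4 T cells between genotypes after TNF turned to 0.24 without the top barcode of each library. Without the top barcode of each library 158 of 168 ratios kept their sign. Leaving out the top barcode, the NK side and the Cd8-negative NK1.1 T cells were chosen after seeing the data. In NK and ILC1 cells the count of members past 2-fold for TNF in A/A was 1, and 4 with ribosomal scaling, and 2 without mitochondrial genes and Rn18s-rs5, with median-of-ratios size factors, per cell, with stricter gates or with no barcodes excluded. For TNF in S/S it was 2, and 5 with ribosomal scaling, 3 with no barcodes excluded or with at least 1 UMI in the pair, and 1 without mitochondrial genes and Rn18s-rs5, with median-of-ratios, per cell, thinned, with stricter gates, with at least 50 UMIs or with a pseudocount of 5 CPM. Between genotypes at baseline it was 0, and 1 when thinned; after TNF it was 1, and 2 without mitochondrial genes and Rn18s-rs5, with ribosomal scaling or with stricter gates. The cause was not tested. Thinned cells held few UMIs of Gzmc, Gzmk, Ifng and Klrg1, so depth limits those values. No paired analysis was possible because each group had 1 library, and no library could be left out.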
